A study of Homo sapiens with 16 samples.

Results

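The cornified envelope genes examined here were 8: the small proline-rich protein genes SPRR2A, SPRR2D, SPRR1A, SPRR1B and SPRR3, the scaffold gene IVL, the crosslinking enzyme gene TGM1 and the cornifelin gene CNFN. They were chosen by name as 1 gene family after earlier results of these arrays were known, and a gene was read from the transcript cluster (the array's unit for a gene) that carried its symbol alone. Signal was to be used only to pick among several such clusters, by the highest mean over the 16 arrays, and each gene had exactly 1. The 8 clusters stand among 33297 on the Affymetrix Human Gene 1.0 ST array, of which 19460 carry exactly 1 symbol.

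The arrays compare knockdown and overexpression of subunits of the Polycomb repressive complex in HCC70 and MDA-MB-468, established lines of basal-like breast cancer. There were 8 groups with 2 arrays apiece. In HCC70 the groups were scrambled shRNA set a, shEZH2, scrambled shRNA set b, shEED, the plKO Puro vector (called the empty vector below) and fip EZH2, an EZH2 cDNA. The labels do not say whether plKO Puro and fip EZH2 share a vector backbone, so a difference between these groups cannot be told apart from one between vectors. In MDA-MB-468 they were scrambled shRNA and shEZH2. Every group, the controls included, was stably infected with virus in the presence of polybrene at 6 μg/ml and placed under puromycin at 1 μg/ml from 48 hours after infection. Cells were seeded at equal confluence 24 hours before RNA extraction. The labels do not say whether the 2 arrays of a group came from separate infections or cultures, so p-values measure only the spread between these arrays. The series gives each treatment its own control, but the labels do not say which scrambled set serves which knockdown. Set a was taken for shEZH2 and set b for shEED because the sample codes run in blocks of a control pair and a treated pair.

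The cornified envelope is the protein shell that replaces the plasma membrane of keratinocytes as they reach the surface of the skin and other stratified epithelia. Involucrin is laid down early under the membrane, transglutaminases join it by covalent bonds to small proline-rich proteins and other precursors, and the resulting layer carries lipid on its outer face. The genes of involucrin and of the SPRR family lie next to each other in the epidermal differentiation complex of chromosome 1, are switched on late in keratinocyte differentiation, and are also expressed by some squamous and basal-like tumours. EZH2 is the methyltransferase of Polycomb repressive complex 2, which places a repressive mark on histone H3, and EED is the subunit that binds this mark.

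The sequence before each start site is shown first because 5 of the 6 genes with an entry shared the same short motif there. RefSeq (GRCh38.p14) gave 250 upstream bases for SPRR2A, SPRR1A, SPRR1B, SPRR3, IVL and CNFN. SPRR2D and TGM1 had no entry in the table used. Of these, 5 are printed here 5′ to 3′ on the strand of the gene, ending at the base before the annotated start, with the matches to the searched motifs in capitals.
SPRR2A: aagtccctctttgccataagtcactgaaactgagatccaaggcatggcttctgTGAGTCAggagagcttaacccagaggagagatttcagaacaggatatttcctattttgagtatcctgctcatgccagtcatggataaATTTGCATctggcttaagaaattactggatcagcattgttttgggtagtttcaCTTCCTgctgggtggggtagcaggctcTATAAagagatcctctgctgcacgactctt
SPRR1A: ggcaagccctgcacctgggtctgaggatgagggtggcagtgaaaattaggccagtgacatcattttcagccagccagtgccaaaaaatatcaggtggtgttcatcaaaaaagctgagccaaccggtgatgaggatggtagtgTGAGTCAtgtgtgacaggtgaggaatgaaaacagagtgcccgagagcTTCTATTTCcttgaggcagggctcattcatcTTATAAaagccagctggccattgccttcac
SPRR1B: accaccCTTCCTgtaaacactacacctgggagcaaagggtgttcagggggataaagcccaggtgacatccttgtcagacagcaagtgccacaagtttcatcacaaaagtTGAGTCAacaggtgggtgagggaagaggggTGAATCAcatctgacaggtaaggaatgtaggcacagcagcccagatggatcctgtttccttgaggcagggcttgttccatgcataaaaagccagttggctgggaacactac
SPRR3: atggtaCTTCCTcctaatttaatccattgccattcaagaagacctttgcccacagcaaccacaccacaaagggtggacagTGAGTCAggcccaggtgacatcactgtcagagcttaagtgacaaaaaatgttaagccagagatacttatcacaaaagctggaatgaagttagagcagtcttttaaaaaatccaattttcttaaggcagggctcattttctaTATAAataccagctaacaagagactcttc
IVL: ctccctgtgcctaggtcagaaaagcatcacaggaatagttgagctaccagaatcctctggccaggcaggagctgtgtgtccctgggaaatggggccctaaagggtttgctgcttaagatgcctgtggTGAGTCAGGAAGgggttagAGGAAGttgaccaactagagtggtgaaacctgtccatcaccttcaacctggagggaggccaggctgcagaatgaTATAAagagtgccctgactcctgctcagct
The intervals, on GRCh38.p14, are SPRR2A chr1:153057513-153057762 (minus strand), SPRR1A chr1:152983831-152984080 (plus strand), SPRR1B chr1:153030953-153031202 (plus strand), SPRR3 chr1:153001499-153001748 (plus strand) and IVL chr1:152908296-152908545 (plus strand).

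The motifs were searched on both strands. The AP-1 motif TGANTCA was found in SPRR2A, SPRR1A, SPRR1B, SPRR3 and IVL and not in CNFN, against 6.57% of the 35116 upstream windows of the same length in the table. Its first base lay 197 bases before the start in SPRR2A, 108 in SPRR1A, 170 in SPRR3 and 123 in IVL, and SPRR1B held 2 matches, at 141 and 111 bases. A TATA box (TATAA) was present in 5 of the 6 windows, all but SPRR1B, against 18.9% of all windows. The ETS motif AGGAAG was present in 4 of 6 (SPRR2A, SPRR1B, SPRR3 and IVL) against 28.7%, and in IVL it shared 1 base with the AP-1 match. The octamer ATGCAAAT was found in SPRR2A alone (1.63% of windows), GAAANNGAA, the core of the interferon-stimulated element, in SPRR1A alone (6.88%), and the Grainyhead-like motif AACCNGTT in none of the 6 (1.49%). A match describes these letters in these windows and is not evidence that a factor binds there. SPRR2A, SPRR1A, SPRR1B and SPRR3 belong to 1 gene family, so their windows are not independent cases to set against these shares. SPRR3 held the same AP-1 motif as its neighbours, and its signal was under the detection floor in every group.

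**Figure D1:**
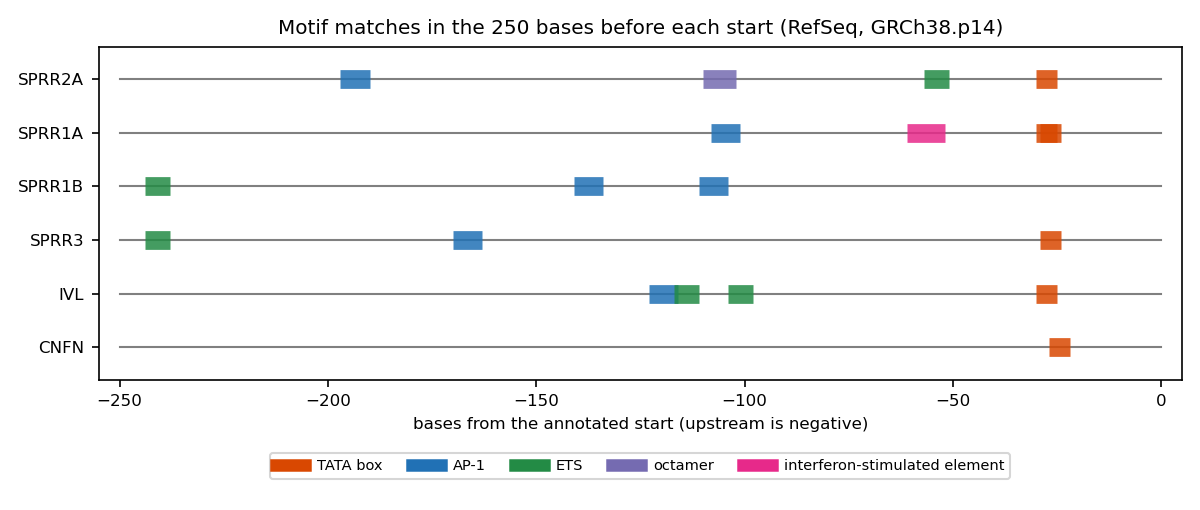
Position of each motif match (coloured blocks) in the 250 bases before the annotated start of 6 genes, with the distance from the start in bases on the horizontal axis. AP-1 matches (blue) lie between 197 and 108 bases before the start in 5 genes, and CNFN shows only a TATA box.

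Values are log2 RMA signals, a normalized array intensity with no unit of its own, in which a difference of 1 is a doubling. Signal under log2 6 was treated as near background, and a cluster was tested when at least 2 of 16 arrays reached that floor, which 16175 clusters did. Among the 8 genes, 5 were tested: SPRR2A, SPRR1A, SPRR1B, IVL and CNFN. SPRR2D and SPRR3 reached the floor on 0 of 16 arrays and TGM1 on 1, so they have levels and no test. SPRR2A reached the floor on 6 arrays and SPRR1A on 8, so both entered the test only through the groups in which they were high, and a difference between groups was built into their entry. "Called" below means an adjusted p under 0.05 by limma with Benjamini-Hochberg adjustment over all 16175 clusters. Since the genes were chosen with results known, these p-values place each gene in the fit over all clusters and are not independent support for a pattern.

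Array medians lay between 5.37 and 5.53 and duplicates correlated at 0.994 to 0.997 over all clusters. EZH2 was lower by limma in both shEZH2 groups (-1.47 ± 0.07 (SE) in HCC70, adjusted p = 3.35e-07, and -1.67 ± 0.07 in MDA-MB-468, adjusted p = 2.56e-07), and EED was lower under shEED (-0.82 ± 0.11, adjusted p = 0.000346). EZH2 was also called lower under shEED, by less (-0.24 ± 0.07, adjusted p = 0.0456 by limma). In the EZH2 cDNA arrays EZH2 was 0.29 ± 0.07 above the empty vector, which was not called (adjusted p = 0.0961 by limma). All 8 epithelial markers checked (EPCAM, CDH1 and 6 keratins) were above the floor on all 16 arrays. Of markers of other cells, 1 of 4 blood markers (CD14) and 1 of 6 fibroblast markers (COL1A1) reached it on all 16 arrays, and the others, with all 3 endothelial markers, on none. These are bulk cultures, in which fewer cells with a transcript and less transcript per cell cannot be told apart.

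SPRR2A, whose product is a crossbridging precursor of the envelope, varied most of the 8 genes. Its group means (cluster 7920205) spanned 4.85 log2 units, and 71 of the 16175 tested clusters had a larger span (median span 0.77). The HCC70 shEZH2 arrays read 8.28 and 8.46, and the scrambled set a arrays 7.05 and 7.29. The EZH2 cDNA arrays read 6.18 and 6.50, and the empty vector arrays 5.01 and 5.21. These 4 groups did not overlap one another, and the empty vector arrays were already under the floor. The shEED arrays read 4.72 and 4.73 and the set b arrays 4.23 and 4.28. In MDA-MB-468 the scrambled arrays read 3.41 and 3.64 and the shEZH2 arrays 3.63 and 3.42, the lowest values of the gene and the only neighbouring pair of groups in its order that overlapped. SPRR2A was therefore under the floor in 5 of 8 groups.

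In HCC70, SPRR2A rose by 1.21 ± 0.13 (SE, n = 2 arrays per group) under shEZH2 against set a, a 2.31-fold difference (adjusted p = 0.00016 by limma). It also rose in the EZH2 cDNA arrays, by 1.23 ± 0.13 over the empty vector (adjusted p = 0.00194 by limma). The control of the second comparison was under the floor, where signal compresses toward background. From the 4 arrays of that comparison alone the difference of 1.23 was not called (adjusted p = 0.126 by limma), in a fit that called 0 clusters. Under shEED the gene read 0.48 ± 0.13 above set b (adjusted p = 0.0344 by limma), with both groups under the floor. That call was lost when any 1 of the 4 arrays was left out (0.448 to 0.503, adjusted p 0.126 to 0.179 by limma) and when clusters were tested with no floor (adjusted p = 0.068). In MDA-MB-468 the difference was 0.00 ± 0.13 (adjusted p = 0.989 by limma) between 2 groups that were both near background, where a fall may not show in full.

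SPRR2D, the second SPRR2 gene of the set, was near background throughout. Its cluster (7920196) read between 3.23 and 3.76 over the 16 arrays and its group means spanned 0.38. The shEZH2 arrays of HCC70 read 3.64 and 3.66 against 3.44 and 3.46 in set a, a difference of 0.20 that has no test.

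SPRR1A and SPRR1B encode the cornifins, which are crosslinked into the envelope by transglutaminases. SPRR1A (cluster 7905544) read 6.93 and 7.09 under shEZH2 in HCC70 and 6.12 and 6.17 in set a. The EZH2 cDNA arrays read 6.67 and 6.33 and the empty vector arrays 6.28 and 6.19. The other 4 groups were under the floor. They were set b with 5.62 and 5.35, shEED with 5.30 and 5.49, MDA-MB-468 scrambled with 5.40 and 5.42, and MDA-MB-468 shEZH2 with 5.40 and 5.18, and neighbours among them in the order of means overlapped. SPRR1A rose by 0.86 ± 0.13 under shEZH2 in HCC70 (1.82-fold, adjusted p = 0.00147 by limma). It differed by 0.27 ± 0.13 under the EZH2 cDNA (adjusted p = 0.523), by -0.09 ± 0.13 under shEED (adjusted p = 0.741) and by -0.12 ± 0.13 under shEZH2 in MDA-MB-468 (adjusted p = 0.600), none of which limma called.

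SPRR1B (cluster 7905553) read 7.70 and 7.82 under shEZH2 in HCC70 and 7.40 and 7.47 in set a, and no other array exceeded 6.46. The remaining HCC70 arrays read 5.96 and 6.09 in set b, 5.84 and 5.97 under shEED, 6.14 and 6.08 with the empty vector and 6.46 and 6.22 with the EZH2 cDNA. In MDA-MB-468 they read 6.03 and 6.35 in the controls and 6.14 and 6.10 under shEZH2. From the EZH2 cDNA group downward, each group in the order of means overlapped the next. The shEED group, with a mean of 5.91, was the only one under the floor. The difference of 0.33 ± 0.11 under shEZH2 in HCC70 had no overlap between arrays and was not called (adjusted p = 0.0896 by limma). The share of all clusters without such overlap was not counted. The other treated minus control differences were 0.23 ± 0.11 with the EZH2 cDNA, -0.12 ± 0.11 under shEED and -0.07 ± 0.11 under shEZH2 in MDA-MB-468, with adjusted p of 0.528, 0.572 and 0.763 by limma.

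SPRR3, a gene best known from the lining of the oesophagus, was near background on every array. Its cluster (7905548) read between 3.67 and 3.98, with a span of 0.21 between group means. In HCC70 shEZH2 it read 3.95 and 3.89 against 3.68 and 3.73 in set a, a difference of 0.21 without a test.

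**Figure D2:**
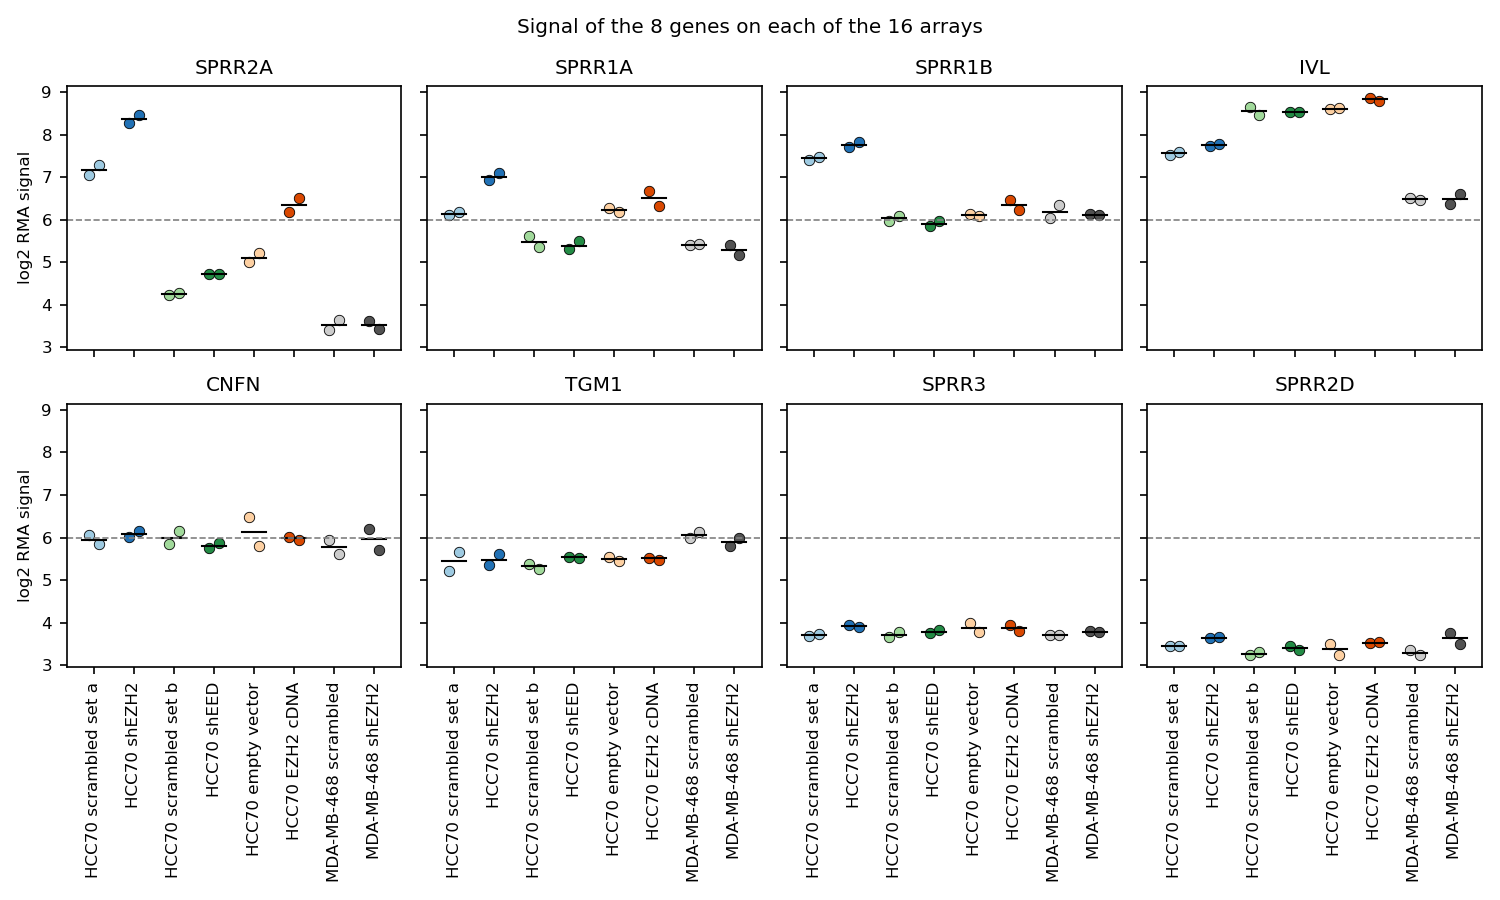
Log2 RMA signal of the 8 genes on each of the 16 arrays, with 1 panel per gene, points for arrays, black bars for the group means (n = 2) and a dashed line at the floor of log2 6. SPRR2A runs from 8.46 under shEZH2 in HCC70 down to 3.41 in MDA-MB-468, IVL is above the floor on all 16 arrays, and SPRR3 and SPRR2D lie under it on all 16.

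IVL encodes involucrin, the scaffold onto which the other precursors are crosslinked, and was the only one of the 8 above the floor on all 16 arrays (cluster 7905533). It read 7.53 and 7.60 in set a and 7.73 and 7.77 under shEZH2. The other 4 HCC70 groups read higher, with 8.65 and 8.45 in set b, 8.52 and 8.52 under shEED, 8.60 and 8.62 with the empty vector and 8.86 and 8.80 with the EZH2 cDNA. MDA-MB-468 read 6.51 and 6.46 in the controls and 6.38 and 6.60 under shEZH2. The signal thus lay at 3 separate levels: at most 6.60 in MDA-MB-468, 7.53 to 7.77 in set a and shEZH2, and at least 8.45 in the other HCC70 groups. No treated group was called against its control for IVL. The differences were 0.18 ± 0.09 under shEZH2 in HCC70 (adjusted p = 0.228 by limma), 0.22 ± 0.09 with the EZH2 cDNA (0.412), -0.02 ± 0.09 under shEED (0.908) and 0.00 ± 0.09 under shEZH2 in MDA-MB-468 (0.982). Array values of the EZH2 cDNA and empty vector groups did not overlap, nor did those of shEZH2 and set a.

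TGM1 encodes the membrane-bound transglutaminase of keratinocytes. Its cluster (7978222) read 5.22 to 5.65 in HCC70 and 5.79 to 6.13 in MDA-MB-468, with the MDA-MB-468 scrambled mean of 6.06 as the only group at the floor. The lines did not overlap, and within a line treated and control means differed by at most 0.22 (shEED, 5.55 and 5.53, against set b, 5.38 and 5.27), without a test. CNFN encodes cornifelin, a minor envelope protein whose gene lies on chromosome 19, away from the SPRR cluster. Its cluster (8037179) read 5.62 to 6.49 around the floor, with 6 of 8 groups under it, and neighbouring groups overlapped throughout its order. Its empty vector duplicates, 6.49 and 5.80, lay farther apart than any other duplicates of the 8 genes. None of its 4 treated minus control differences was called, and the smallest adjusted p was 0.63 by limma (0.19 ± 0.22 under shEZH2 in MDA-MB-468).

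By the call of limma, 2 of the 5 tested genes were higher under shEZH2 in HCC70 and 0 lower, where 7.30% of all tested clusters were higher and 4.06% lower. In the EZH2 cDNA arrays 1 was higher and 0 lower (0.909% higher and 0.0680% lower over all clusters). Under shEED 1 was higher and 0 lower (6.63% and 7.53%). In MDA-MB-468 under shEZH2 none was called, also at an unadjusted p under 0.05 (2.73% and 5.57%, or 442 and 901 clusters, which centring each array on its median moved to 226 and 974). The called genes were SPRR2A in 3 comparisons and SPRR1A in 1, and these counts carry the way the genes were chosen and admitted to the test.

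**Figure D3:**
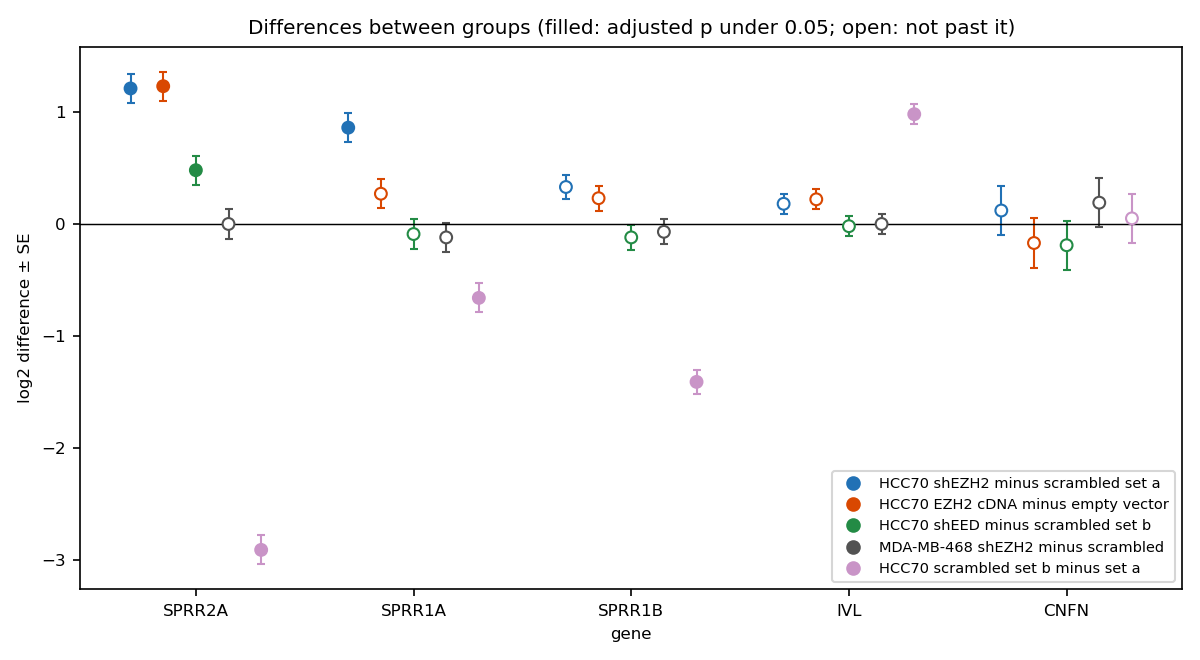
Log2 differences (± SE from limma, n = 2 arrays per group) of the 5 tested genes in the 4 treatments and between the 2 scrambled control sets of HCC70, with filled points at an adjusted p under 0.05. The difference between control sets in SPRR2A, -2.91, is larger in size than its differences of 1.21, 1.23 and 0.48 in the HCC70 treatments, and set b, shEED and the empty vector are under the floor for this gene.

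The 2 scrambled control sets of HCC70 differed in 4 of the 5 tested genes, and the measured differences in SPRR2A, SPRR1B and IVL were larger in size than those of any treated group from its control. Set b was under the floor for SPRR2A (4.23 and 4.28) and SPRR1A, so no fold is given for these genes. From set a to set b, SPRR2A was lower by 2.91 log2 units (-2.91 ± 0.13, adjusted p = 1.93e-07 by limma) and SPRR1B by 1.41 (-1.41 ± 0.11, 2.66-fold lower, adjusted p = 9.95e-06). SPRR1A was lower by 0.66 (-0.66 ± 0.13, adjusted p = 0.00412), a call lost without set b replicate 2 (-0.524, adjusted p = 0.0517). IVL went the other way and was 0.98 ± 0.09 higher in set b (1.97-fold, adjusted p = 2.57e-05 by limma). CNFN differed by 0.05 ± 0.22 (adjusted p = 0.899). Over all clusters 15.3% were higher and 7.41% lower in set b, against 1 and 3 of the 5 genes. The split was 2479 and 1198 clusters, and 2663 and 685 after centring or 2156 and 1600 after a second quantile normalization, with the same 4 genes called each time. What sets the control sets apart was not tested, and the labels give both the same construct and protocol.

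The sign of the difference changed with the control set for IVL under both knockdowns and for SPRR2A under shEED. The following comparisons share arrays with the ones above and add no independent evidence. Against set b the shEZH2 arrays were higher in SPRR2A by 4.12, in SPRR1B by 1.74 and in SPRR1A by 1.52, and IVL was -0.80 (all 4 called by limma, adjusted p at most 7.48e-05). That comparison called 1834 of the 16175 tested clusters higher and 2491 lower. Against the mean of both sets the shEZH2 values were 2.66 for SPRR2A, 1.19 for SPRR1A, 1.03 for SPRR1B and -0.31 for IVL, also called. Over all tested clusters 1472 were higher and 1576 lower there. SPRR2A and SPRR1A were thus higher in the shEZH2 arrays than in either set. The shEED arrays were lower than set a in SPRR2A (-2.44), SPRR1B (-1.53) and SPRR1A (-0.75) and higher in IVL (0.95), all 4 called, which reverses the sign for SPRR2A. Against set a, 3684 of the 16175 tested clusters were called higher under shEED and 2256 lower. EED itself was 0.38 ± 0.11 lower in set b than in set a (-0.38, adjusted p = 0.0219 by limma), and EZH2 differed by 0.07 ± 0.07 (adjusted p = 0.539).

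The change under shEZH2 was compared between the lines in the same model, as the HCC70 difference minus the MDA-MB-468 difference. It was 1.20 ± 0.19 for SPRR2A (adjusted p = 0.00274 by limma) and 0.99 ± 0.18 for SPRR1A (adjusted p = 0.00659), 2 of 5 genes toward HCC70 and 0 the other way, beside 8.97% and 4.27% of all clusters. It was 0.39 ± 0.16 for SPRR1B (adjusted p = 0.129), 0.18 ± 0.13 for IVL (0.380) and -0.06 ± 0.30 for CNFN (0.913), none called. Both called genes had signal under the floor on all 4 MDA-MB-468 arrays, so the difference rests on the HCC70 arrays. These values use the set a arrays that the HCC70 comparison uses.

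Between the lines, MDA-MB-468 controls were compared with the mean of both HCC70 sets. Of the 5 tested genes 4 were lower in MDA-MB-468 and 0 higher, where 32.1% of all clusters were lower and 37.1% higher. They were SPRR2A (-2.18 ± 0.12, adjusted p = 1.00e-08 by limma), IVL (-1.57 ± 0.08, 2.98-fold lower, adjusted p = 5.52e-09), SPRR1B (-0.54 ± 0.10) and SPRR1A (-0.40 ± 0.11). SPRR2A was under the floor in MDA-MB-468 and in set b, and SPRR1A likewise, so no fold is given for them. Against set b alone SPRR1B and SPRR1A were not called (0.161 and -0.073). The arrays of the lines did not overlap for IVL (at most 6.60 in MDA-MB-468 and at least 7.53 in HCC70), SPRR2A (at most 3.64 and at least 4.23) and TGM1. TGM1 reached the floor on 1 array only. How many of all clusters separate the lines in this way was not counted.

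Across the 8 group means the 3 tested SPRR genes correlated positively with one another, in orders that differed in part. Pearson's r was 0.91 between SPRR1A and SPRR2A, 0.88 between SPRR1B and SPRR2A and 0.73 between SPRR1A and SPRR1B. IVL and SPRR2A gave 0.32 over the 8 groups and -0.73 over the 6 HCC70 groups, and IVL and SPRR1B -0.14 and -0.90. The points share arrays and normalization and several lie under the floor, so these values only describe the 8 groups. Within HCC70 the groups with the highest SPRR1B (set a and shEZH2) were those with the lowest IVL.

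**Figure D4:**
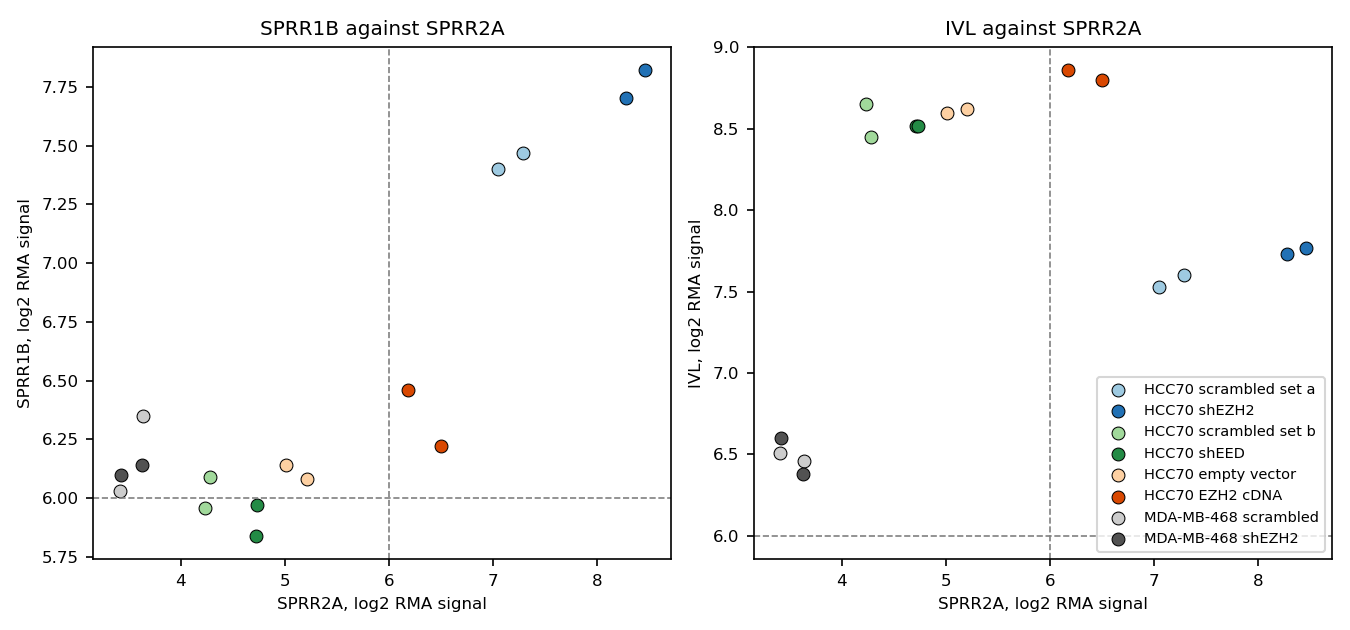
SPRR1B (left) and IVL (right) against SPRR2A on the 16 arrays, all as log2 RMA signal, with colours for the 8 groups and dashed lines at the floor of log2 6. Set a and shEZH2 of HCC70 stand at the right with SPRR1B of at least 7.40 and IVL of at most 7.77, and the other HCC70 arrays have IVL of at least 8.45.

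The genes with the pattern most like each tested gene were the 3 highest by Pearson's r over the 8 group means, of 11140 single-symbol genes compared. For SPRR2A they were TIGD7 (r = 0.992), PPP1R14A (0.981) and C8G (0.980), whose group means spanned 0.65, 0.79 and 0.44 log2 units, much less than the 4.85 of SPRR2A. For IVL they were SVIL (0.996), CMTM3 (0.995) and MYO1E (0.994), with spans of 1.98, 2.40 and 1.95 beside 2.35 for IVL. For SPRR1B they were AFF1, BABAM1 and RETSAT (0.985 to 0.978), for SPRR1A VWC2, KLHL34 and SLC35A2 (0.965 to 0.952), and for CNFN LIMS2, NKX2-6 and TCEAL3 (0.938 to 0.932), with spans of 0.35 to 0.68.

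SPRR genes with signal in at least some groups and SPRR genes under the floor on all arrays were interspersed along the chromosome. In RefSeq the order is IVL, SPRR5, SPRR4, SPRR1A, SPRR3, SPRR1B, SPRR2D, SPRR2A, SPRR2B, SPRR2E, SPRR2F and SPRR2G. SPRR3 and SPRR2D, under the floor on all arrays, thus lie between genes with signal in some groups. Of these, SPRR1A reached the floor on 8 of 16 arrays and SPRR2A on 6, all in HCC70. SPRR4 read 5.67 to 6.32, around the floor. Among the close copies of SPRR2A, SPRR2B and SPRR2E were under the floor on every array (at most 4.23 and 3.77). SPRR2F (cluster 8180384) read 7.80 in set a, 8.02 under shEZH2 and 7.28 in set b as group means, and its lowest array read 7.07. In MDA-MB-468, where SPRR2A was under the floor, SPRR2F means were 7.09 (scrambled) and 7.25 (shEZH2). The difference of SPRR2F under shEZH2 in HCC70, 0.22 ± 0.14, was not called (adjusted p = 0.365 by limma), while set b was lower than set a (-0.52 ± 0.14, adjusted p = 0.0203). SPRR2G had a cluster (8180406) that was also lower in set b (-0.50 ± 0.15, adjusted p = 0.0338 by limma) and another (7920217) that was not called (0.07 ± 0.12). The SPRR2 genes are near-identical in their coding parts, and how far a probe of one reads another was not tested.

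Other genes of the pathway were taken from 7 lists with 119 genes, of which 109 had a cluster of their own and 68 were tested. Under shEZH2 in HCC70, 10 were higher and 8 lower, beside 7.30% and 4.06% of all tested clusters. None of the 15 other envelope precursors tested was higher and 1 was lower, the elafin gene PI3 (-0.36 ± 0.08, adjusted p = 0.0161 by limma). That call was lost without set a replicate 1 (-0.298, adjusted p = 0.130), without shEZH2 replicate 1 (-0.278, adjusted p = 0.0792) and with the arrays of the comparison only (adjusted p = 0.180). Of 8 tested crosslinking and processing genes 3 rose, among them the cystatin gene CST6 (1.62 ± 0.10, from 6.40 to 8.02, adjusted p = 1.61e-06), an inhibitor of cathepsins and legumain, and TGM2 (0.74 ± 0.11), while TGM5 fell (-0.73 ± 0.11). Of 10 S100 and annexin genes 3 rose, including S100A8 (1.70 ± 0.13, from 8.95 to 10.65) and S100A7 (1.49 ± 0.24, from 4.85 to 6.34), and S100A2 fell (-1.03 ± 0.15). Of 5 tested keratins of upper layers 2 fell, the mucosal keratin gene KRT4 (-2.36 ± 0.09, from 10.44 to 8.09) and KRT16 (-0.69 ± 0.08). Among 21 transcription factors of keratinocyte differentiation 3 rose and 1 fell. Those that rose were TFAP2C (0.54 ± 0.10), PRDM1 (0.50 ± 0.13, from 5.33 to 5.83, both under the floor) and JUNB (0.42 ± 0.10, adjusted p = 0.0155 by limma). Against set b the calls of KRT16 (0.175), S100A2 (-0.347), PRDM1 (0.056) and JUNB (0.083) were lost, and TFAP2C reversed (-0.503). With the arrays of the comparison only, KRT16, S100A2, PRDM1, JUNB and TFAP2C were not called (adjusted p 0.0594 to 0.209 by limma). The call of JUNB was also lost without set a replicate 1, set a replicate 2 or shEZH2 replicate 1 (0.372 to 0.473). That of PRDM1 was lost without set a replicate 1 (0.284) or shEZH2 replicate 1 (0.42). CST6, TGM2, TGM5, S100A7, S100A8 and KRT4 kept their call under every alternative in which they were tested. The list medians ran from -0.45 (keratins) to 0.16 (enzymes and inhibitors), beside 0.008 over all tested clusters.

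Under shEED 1 of the 68 was higher and 17 lower, beside 6.63% and 7.53% of all tested clusters. The fallen genes included KRT4 (-2.75 ± 0.09), PI3 (-1.39 ± 0.08), the urokinase receptor relative LYPD3 (-1.37 ± 0.11), the serpin SERPINB4 (-1.08 ± 0.17), the envelope precursor CSTA (-1.03 ± 0.23) and 3 of 4 tested genes of the lipid envelope, and S100A7 was higher (0.80 ± 0.24, with both groups under the floor). Against set a, PI3 was -0.396 (adjusted p = 0.00292). Of the lipid genes, UGCG was 0.321 against set a and -0.107 against both sets, and SULT2B1 (-0.406) lost its call with no floor (adjusted p = 0.0631), after centring (0.0598) and without set b replicate 1, set b replicate 2 or shEED replicate 2 (-0.275 to -0.458). The call of S100A7 was lost without any 1 array (0.661 to 0.946) and that of CSTA without either set b array or shEED replicate 1 (-0.844 to -1.055). In the EZH2 cDNA arrays 3 were higher and 0 lower (0.909% and 0.0680% of all clusters): PI3 (0.71 ± 0.08), KRT16 (0.55 ± 0.08) and PRDM1 (0.89 ± 0.13, from 5.23, under the floor, to 6.12), a repressor of transcription in terminal differentiation. With the 4 arrays of this comparison alone none was called, and without 1 array KRT16 and PRDM1 lost the call (KRT16 without empty vector replicate 1 or either cDNA array, PRDM1 without either cDNA array). Against both scrambled sets PI3 was -0.405 and KRT16 -0.16. In MDA-MB-468 under shEZH2 2 were higher, one of them the hair follicle gene TCHH (0.60 ± 0.09), and 8 lower, among them EHF (-0.74 ± 0.10), GRHL3 (-0.61 ± 0.10) and GRHL1 (-0.45 ± 0.08) of the 21 transcription factors, beside 2.73% and 5.57% of all clusters. S100A7 (-0.99 ± 0.24), PI3 (-0.55 ± 0.08) and KRT4 (-0.38 ± 0.09) were also among those lower. With the arrays of this comparison only, TCHH, EHF, GRHL3, GRHL1, S100A7, PI3 and KRT4 were not called (adjusted p 0.120 to 0.217 by limma). Without MDA-MB-468 scrambled replicate 2 GRHL3 (-0.571), GRHL1 (-0.363), S100A7 (-0.622) and KRT4 (-0.346) were not called. Nor was S100A7 without shEZH2 replicate 1 (-0.931) or 2 (-1.043), or KRT4 without shEZH2 replicate 2 (-0.285). With no floor S100A7 lost its call as well (adjusted p = 0.0571 by limma). Each value given with an SE in this paragraph was called by limma at an adjusted p of at most 0.0454. In MDA-MB-468 controls, the envelope precursors PPL (-3.41 ± 0.13) and CSTA (-2.64 ± 0.20) were lower than in the mean of both HCC70 control sets. S100A7 (3.93 ± 0.21) and the caspase gene CASP14 (2.99 ± 0.10) were higher. Over the 68 genes 18 were higher and 35 lower in that comparison, beside 37.1% and 32.1% of all clusters.

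**Figure D5:**
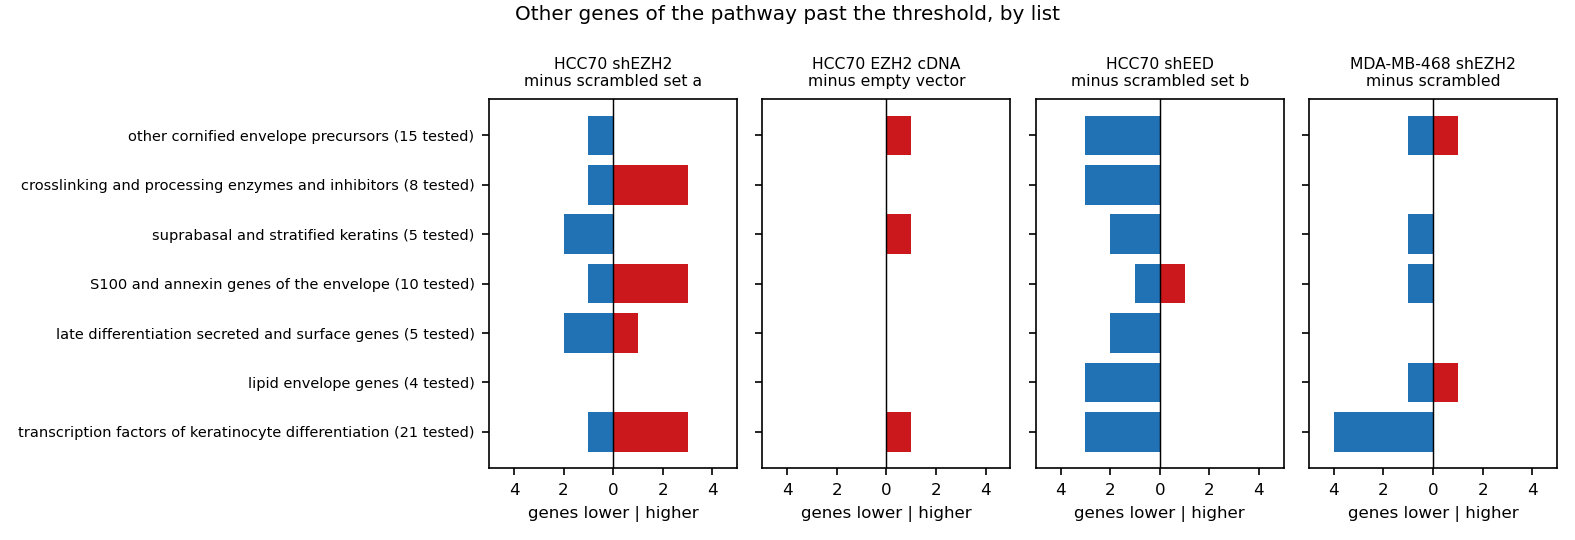
Number of genes higher (red, right) and lower (blue, left) at an adjusted p under 0.05 in each of 7 lists of other pathway genes, for the 4 treated minus control comparisons. The list of other envelope precursors has 0 higher under shEZH2 in HCC70 and 3 lower under shEED.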

How the data were processed

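RNA of 16 samples in 8 groups of 2 was labelled from 200 ng and hybridised to Affymetrix Human Gene 1.0 ST arrays, per the labels' protocols. The deposited values are log2 signals, made by the authors with RMA in Affymetrix Expression Console per the submitters' processing notes; RMA corrects background, quantile-normalizes and summarises probes, so differences near background are compressed. No source used here names the genome build. All values of the 16 arrays were used as deposited, for 33297 clusters.

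A model with 8 group means was fitted in R 4.3.3 with limma 3.58.1 (lmFit and eBayes, 8 residual and 3.69 prior degrees of freedom), on the 16175 clusters at log2 6 or more on at least 2 arrays. Tests were two-sided, with Benjamini-Hochberg adjustment within each comparison and a threshold of 0.05. The test was run on simulated data with independent noise and changes added to the HCC70 shEZH2 arrays alone. The simulation held no differences between control sets or lines, so it cannot speak to those. The named genes are the 8 genes, EZH2 and EED, per pathway list and comparison the 3 called genes with the largest change or some of them, and the 3 genes most alike in pattern. LOR, an older symbol of LORICRIN, was counted once. The genes and lists were chosen with earlier results of these data known. Alternatives were the floor, centring, a second quantile normalization, the replicate block, the arrays fitted, the control set and leaving out each array. Promoter windows came from a RefSeq table. The number of arrays limits the precision.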

Additional observations from a re-analysis of the deposited data

Results flagged for a closer look

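The change of SPRR2A under shEZH2 differed between the lines by 1.20 log2 units (HCC70 minus MDA-MB-468), and that of SPRR1A by 0.99, each by the interaction term of the limma model (adjusted p = 0.00274 and 0.00659, n = 2 arrays per group). Both genes were under log2 6 in both MDA-MB-468 groups, where signal compresses toward background and a fall may not show in full. The values therefore rest on the HCC70 arrays.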

How the results depend on the processing

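The rise of SPRR2A under shEZH2 in HCC70 kept its direction and call under every alternative run, and that of SPRR1A under every one in which it was tested; at a floor of log2 7 it was not, which leaves 1 of the 5 genes called there and 1 between the lines. The choice of control moved most. With set b, 4 genes were called for shEZH2, beside 4325 of the 16175 tested clusters, and 4 between the lines, beside 2614. With both sets 4 were called for shEZH2, beside 3048 clusters. IVL became -0.796 with set b and -0.307 with both sets (between the lines -0.8 and -0.311). Against set a and against both sets, shEED gave 4 called genes each, beside 5940 and 4465 clusters. SPRR2A was -2.437 and -0.981 there, and IVL 0.954 and 0.465. Against both sets the EZH2 cDNA gave 4, beside 1536 clusters, with SPRR1B at -0.393. With HCC70 set b alone the lines differed in 2 genes, and SPRR1B was 0.161. The shEED call of SPRR2A was lost with no floor and without any 1 array (0 genes called), and the cDNA call with its own arrays only (0 called). In MDA-MB-468 under shEZH2, where no gene was called, centring gave SPRR2A -0.052 and IVL -0.051, and a second quantile normalization -0.007 for each.

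Over all clusters the shEZH2 count of 1837 became 276 with its own arrays only, 4325 against set b and 3048 against both sets. The shEED count of 2290 became 4439, 5940 (set a) and 4465. The cDNA count of 158 became 88 with no floor, 88 after centring, 0 with its own arrays and 1536 against both sets. The MDA-MB-468 count of 1343 became 848 with no floor and 21 with its own arrays. With their own arrays, the control sets gave 6269 (3677 with all) and the lines' difference 500 (2141). Leaving out 1 array gave 688 to 1977 for shEZH2, 1013 to 1128 for shEED, 14 to 97 for the cDNA, 231 to 1552 for MDA-MB-468, 1604 to 2040 for the control sets and 921 to 2633 for the lines' difference. It also turned the sign of uncalled values: under shEED SPRR1A (-0.224 to 0.049) and IVL (-0.124 to 0.075), in MDA-MB-468 SPRR1B (-0.223 to 0.093), SPRR2A (-0.111 to 0.12), IVL (-0.107 to 0.117) and CNFN (-0.063 to 0.435), and elsewhere CNFN with the cDNA (-0.509 to 0.177), between control sets (-0.101 to 0.192) and between the lines (-0.312 to 0.186). For 66 differences of other pathway genes, examined under the same alternatives after the data were seen, 759 values kept direction and call, 107 lost the call and 5 reversed: KRT16 (0.175) and TFAP2C (-0.503) under shEZH2 against set b, UGCG (0.321) under shEED against set a, and PI3 (-0.405) and KRT16 (-0.16) for the cDNA against both sets. A group left with 1 array is assumed to vary like the others. Apart from the steps that leave out arrays, clusters or a control, the cause of these shifts was not tested.

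Same-numbered arrays did not deviate together (r = 0.077, -0.002, 0.002 and -0.023 in the 4 treatments). With the replicate number as a block the counts were 1965, 2483, 145 and 1500 for the 4 treatments, 3836 for the control sets, 2279 for the lines' difference and 11262 between the lines, and no call among the 5 genes changed. No gene had a second single-symbol cluster, so that alternative was not run.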
